A study of Mus musculus with 8 samples.

Results

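The genes described here carry the symbols of protein subunits of the mitochondrial ribosome and were measured by bulk RNA-seq in cultured mouse CD8+ T cells. They were taken by symbol from the deposited count table, as every Mrpl or Mrps symbol followed by a digit, without the entries named as pseudogenes and with at least 10 counts in each of the 4 columns. The rule gave 77 genes of the 56805 in the table, 50 of the large subunit and 27 of the small subunit. The small-subunit genes include Mrps36, which is also a subunit of the oxoglutarate dehydrogenase complex. One further symbol, Mrpl53, met the naming rule but stood at 0 counts in all 4 columns, and 6 pseudogene entries were dropped. In the GENCODE M21 annotation, which is on another genome build than the one the authors counted on, Mrpl53 lies wholly inside Gm42688 on the same strand, and Gm42688 had 123 and 233 counts in sgElovl1 cells and 112 and 188 in sgNT cells.

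The cells were OT-I T cells, whose transgenic T cell receptor recognises a peptide of chicken ovalbumin, from OT-I:Rosa26-Cas9 mice, which carry a Cas9 knock-in. All of them were activated in vitro with beads against CD3 and CD28, grown with IL-2, IL-7 and IL-15, given a lentiviral vector with a single guide RNA and the surface reporter CD90.1, and sorted on that reporter 3 days after transduction. The vector held a guide against Elovl1 (sgElovl1) or a non-targeting guide (sgNT). Elovl1 is an elongase that makes very-long-chain fatty acids. The labels name 8 samples, 2 of each guide in each of 2 experiments, and give no age of the mice. The study's methods describe replicates as mice, and the table holds the sum of 2 of them in each column, so that 4 columns were compared and no spread between mice could be seen. The cells of each column were a sorted pool and not a clone, and unedited cells can remain in such a pool.

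Mitochondria keep ribosomes of their own, which read the few messenger RNAs of the mitochondrial genome into core subunits of the respiratory chain and ATP synthase. The ribosomal RNAs are made inside the organelle, whereas every protein subunit is encoded in the nucleus, made in the cytosol and imported, so that one particle depends on both genomes. Some subunits descend from bacterial ribosomal proteins and others exist only in mitochondria. Activated T cells enlarge their mitochondria and need mitochondrial translation to proliferate and to make effector proteins.

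The column totals lay between 49068952 and 63623476 counts. Elovl1 itself had 61.3 and 55.8 CPM, which are read counts scaled to a common library size, in sgElovl1 cells of experiments 1 and 2, against 110 and 93.5 CPM in sgNT cells, a log2 fold change of -0.80 ± 0.07 (SE) with an edgeR adjusted p of 3.8e-28. About 57.4% of the transcript was thus left in the columns labelled sgElovl1. Without the experiment as a term, Elovl1 had the same log2 fold change but no longer passed. An exact permutation test of 2 columns against 2 cannot give a p below 0.333, and Elovl1 gave that value. The first principal component of log2 CPM, with 73.95% of the variance, put both columns of experiment 2 (54.8 for sgElovl1 and 49.3 for sgNT) apart from both columns of experiment 1 (-48.9 and -55.2). All 7 CD8 T cell markers were expressed, while Ms4a1, Ncr1 and Hbb-bs, which mark B cells, natural killer cells and red cells, stood at 0 in every column.

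Promoter sequences from RefSeq (build GRCm38.p6, 250 bases before to 50 bases after a gene's start) were at hand for 68 of the 77 genes. They are shown because the genes moved together between the experiments, as described further on, and because the nuclear respiratory factor NRF1 and factors of the ETS family are known regulators of nuclear genes for mitochondria. The NRF1 motif GCATGCGC, searched on both strands, was in 8 of the 68 genes (11.8%) against 3.05% of all 27025 genes with a window, and the ETS motif CCGGAAGT in 12 (17.6%) against 4.31%. The YY1 motif AAGATGGC was likewise in 12 genes (17.6%) against 3.19%, and the E-box CACGTG in 5 (7.35%) against 8.09%. More genes had a window than were tested in these cells, so the shares over all genes include untested ones. The shares over tested genes alone were not computed. No motif contains another, and a match is only a description of the sequence. The 250 bases before the start follow for 4 genes with a motif, from both ends of the difference between the experiments. They are Mrps18b (chr17:35916441-35916690, minus strand) and Mrpl17 (chr7:105811088-105811337, minus strand), which were among the 4 lowest in experiment 2, and Mrps26 (chr2:130563507-130563756, plus strand) and Mrpl9 (chr3:94443086-94443335, plus strand), which were the 2 highest. Capitals mark the NRF1 motif in Mrps18b, Mrpl17 and Mrpl9 and the ETS motif in Mrps26. Mrps14, also among the 4 lowest, and Mrpl58 and Mrpl14, also among the 4 highest, held none of the 4 motifs there and are not printed.
Mrps18b: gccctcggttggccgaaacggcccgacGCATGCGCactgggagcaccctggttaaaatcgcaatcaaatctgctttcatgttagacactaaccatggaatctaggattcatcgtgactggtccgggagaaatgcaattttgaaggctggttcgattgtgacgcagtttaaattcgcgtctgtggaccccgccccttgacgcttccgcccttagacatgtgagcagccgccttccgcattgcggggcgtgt
Mrpl17: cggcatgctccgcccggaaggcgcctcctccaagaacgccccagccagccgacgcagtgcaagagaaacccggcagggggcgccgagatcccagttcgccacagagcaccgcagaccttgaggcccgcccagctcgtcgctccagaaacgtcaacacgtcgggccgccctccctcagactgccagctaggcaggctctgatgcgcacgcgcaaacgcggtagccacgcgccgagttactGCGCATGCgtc
Mrps26: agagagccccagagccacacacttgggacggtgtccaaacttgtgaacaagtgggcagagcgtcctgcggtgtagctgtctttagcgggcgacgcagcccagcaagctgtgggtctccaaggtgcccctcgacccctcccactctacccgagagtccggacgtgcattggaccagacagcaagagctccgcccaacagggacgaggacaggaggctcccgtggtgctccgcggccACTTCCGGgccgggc
Mrpl9: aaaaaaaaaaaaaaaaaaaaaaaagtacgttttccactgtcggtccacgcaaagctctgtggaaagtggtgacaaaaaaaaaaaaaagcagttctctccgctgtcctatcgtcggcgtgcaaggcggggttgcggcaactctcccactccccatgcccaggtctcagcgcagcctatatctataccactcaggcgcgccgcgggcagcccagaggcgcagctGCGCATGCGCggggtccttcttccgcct
The NRF1 motif began 223 bases before the start in Mrps18b, 11 in Mrpl17 and 28 in Mrpl9, where it reads the same on both strands. The 8 genes with this motif had a median log2 difference between the experiments of -0.35, and the 60 without it -0.46. With and without the other motifs, the medians were -0.40 and -0.45 (ETS), -0.41 and -0.45 (YY1) and -0.44 and -0.43 (E-box). Whether any motif bore on the difference was not tested.

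To ask whether loss of Elovl1 altered the mitochondrial ribosome, its subunit genes were first compared between sgElovl1 and sgNT cells. None of the 77 genes passed the threshold of 0.05 for the adjusted p (edgeR quasi-likelihood test with the experiment as a term, adjusted over 16006 genes), while 1.2% of all genes did. The lowest adjusted p was 0.103, for Mrpl17. At an unadjusted p below 0.05 edgeR gave 10 genes lower and 1 higher, together 14.3% of the 77. Over all genes the shares were 5.55% lower and 5.05% higher, together 10.6%. DESeq2 gave 1 of the 77 genes in all and limma-voom 12, and none passed after adjustment in either. For those fits the share over all genes was not computed. The median log2 fold change was -0.05 over the 77 genes and -0.01 over all genes. The 95% intervals of all 77 lay within a 1.5-fold change in either direction, with bounds from -0.51 to 0.47 on the log2 scale. With 1 residual degree of freedom, these errors rest on a spread that edgeR shares across genes.

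**Figure D1:**
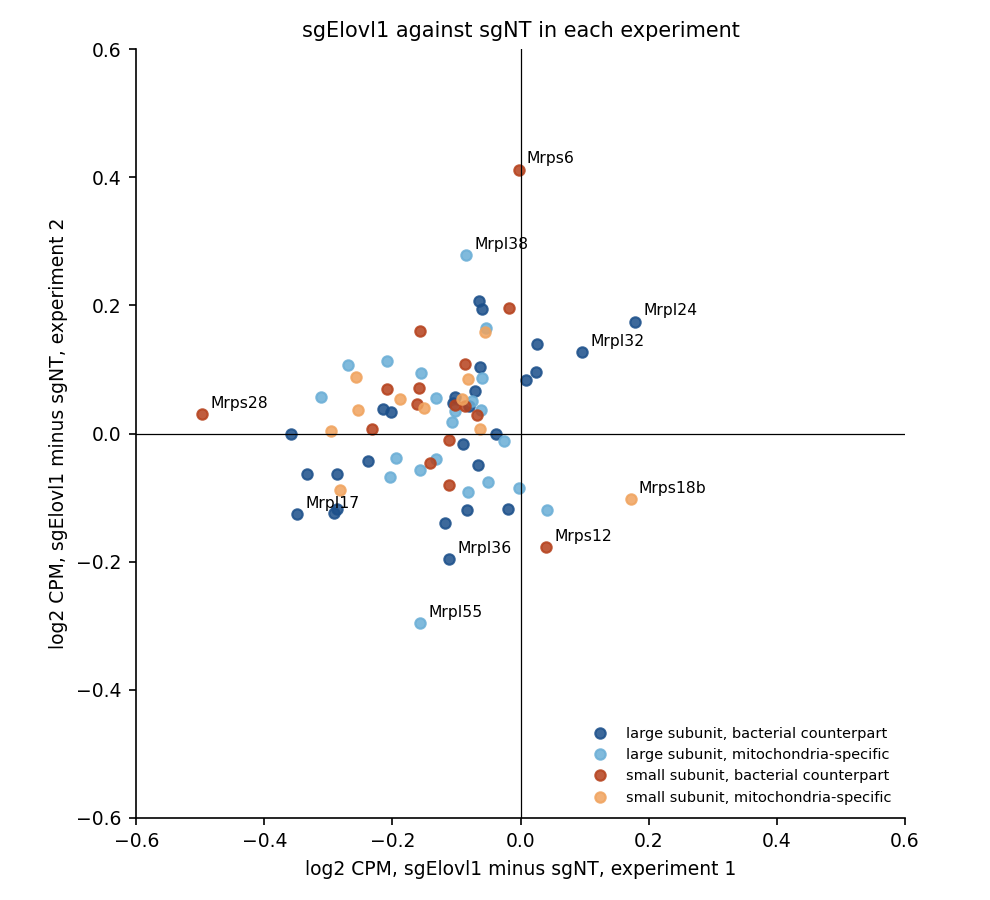
Difference in log2 CPM, sgElovl1 minus sgNT, in experiment 1 (x axis) and experiment 2 (y axis) for the 77 genes, coloured by subunit and by whether a bacterial counterpart exists. Most points lie left of 0, with 69 of 77 below 0 in experiment 1, and they scatter about 0 in experiment 2, with 29 below. Of all 16006 genes, 8706 and 8003 were below 0.

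The difference was mostly below 0 in experiment 1 and centred near 0 in experiment 2. In experiment 1, 69 of the 77 genes were lower in sgElovl1 cells, with a median of -0.10, and in experiment 2 only 29 were, with a median of 0.04. Of all 16006 genes, 8706 were lower in experiment 1 and 8003 in experiment 2, with medians of -0.02 and 0.00. The cytosolic ribosomal protein genes showed a like pattern, with 75 of 82 lower in experiment 1 (median -0.15) and 27 of 82 in experiment 2 (median 0.03). Each is a difference of 1 column from 1 column, with no error of its own, and the difference between the experiments could not be tested. In both experiments together 26 genes (33.8%) were lower, against 30.1% of all genes, and 5 (6.49%) were higher, against 25.6%. The count of lower genes depended on the scaling. It was 26 with upper-quartile factors, 21 with DESeq2 size factors and 20 without the mitochondrial genes and the 20 genes of most counts. In the main fit, the lower genes comprised 22 of the 50 large-subunit genes and 4 of the 27 small-subunit genes. The 5 that were higher in both, Mrpl1, Mrpl4, Mrpl15, Mrpl24 and Mrpl32, all have bacterial counterparts in the large subunit.

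Mrpl17, of the bacterial L17 family, had 39.7 and 19.7 CPM in sgElovl1 cells of experiments 1 and 2, against 50.5 and 21.5 CPM in sgNT cells. The log2 fold change was -0.25 ± 0.08 (SE). Both experiments lay on the same side, but the 2 sgElovl1 columns differed from each other far more than from their own controls. Mrps28, of the small subunit, had the lowest fold change (-0.26 ± 0.13, adjusted p = 0.445 by edgeR). Its values were 11.9 and 6.62 CPM in sgElovl1 cells, against 16.8 and 6.49 CPM in sgNT cells, so that only experiment 1 separated the guides. Mrpl55, which is specific to mitochondria, had 20.7 and 12 CPM in sgElovl1 cells, against 23 and 14.7 CPM in sgNT cells, a log2 fold change of -0.22 ± 0.10. Mrpl23, Mrpl35 and Mrpl14 completed the 6 lowest, with -0.21, -0.20 and -0.20.

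At the other end stood Mrps6 and Mrpl24. Mrpl24, a large-subunit protein whose bacterial relative acts early in assembly, had 111 and 124 CPM in sgElovl1 cells, against 98.3 and 110 CPM in sgNT cells. Both sgElovl1 values were above both sgNT values, with a log2 fold change of 0.18 ± 0.06 and an edgeR adjusted p of 0.197. Mrps6 had 10.7 and 7.42 CPM in sgElovl1 cells, against 10.7 and 5.57 CPM in sgNT cells, a log2 fold change of 0.19 ± 0.14 that came from experiment 2 alone. It is also the lowest of the 77 in counts, and 2 annotated genes, Gm49711 and Slc5a3, share much of its span on the same strand. Mrpl32, Mrpl38, Mrpl4 and Mrps10 had log2 fold changes of 0.11, 0.09, 0.08 and 0.08. Both sgElovl1 columns lay below both sgNT columns in 3 genes (Mrpl14, Mrps9 and Mrpl43, against 6.85% of all genes) and above them in 2 (Mrpl4 and Mrpl24, against 5.77%).

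The genes with known roles in the particle were close to 0 as well. Of the stalk, which recruits translation factors, Mrpl12 had a log2 fold change of -0.14 ± 0.07, Mrpl10 of -0.10 ± 0.07 and Mrpl11 of -0.03 ± 0.08. Mrpl45, at the tunnel exit where the new chain meets the inner membrane, had -0.04 ± 0.07. Mrpl58, a release factor-like hydrolase built into the large subunit, had -0.03 ± 0.06, Mrpl3 -0.13 ± 0.08 and Mrpl44 -0.01 ± 0.08. In the small subunit, Mrps12, at the decoding centre, had -0.07 ± 0.08. Mrps2, Mrps16, Mrps22 and Mrps34, whose human counterparts are mutated in mitochondrial disease, had values from -0.07 to -0.02. The 3 relatives of bacterial S18, which occupy different places in the particle, had 0.01 (Mrps18a, in the large subunit), 0.05 (Mrps18b) and -0.01 (Mrps18c). Mrps30, in the large subunit despite its name, had -0.04. The lowest adjusted p in this group was 0.393 by edgeR, for Mrpl12.

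Few other nuclear genes of the pathway passed the test. Of 16 translation factors and mRNA-handling genes, only Tufm passed the test. Tufm is the elongation factor that carries aminoacyl-tRNA to the mitochondrial ribosome, and it had 121 and 102 CPM in sgElovl1 cells, against 145 and 118 CPM in sgNT cells (log2 fold change -0.23 ± 0.06, edgeR adjusted p = 0.0323). It was lower in both experiments, by similar amounts (-0.26 and -0.21), although the sgElovl1 value of experiment 1 was above the sgNT value of experiment 2. The call was lost in most of the other analyses, with an adjusted p of 0.0741 under DESeq2 size factors and of 0.318 in DESeq2's Wald test, and held with upper-quartile scaling and limma-voom. Mtfmt, which formylates the initiator tRNA, was next with 0.24 ± 0.08 and an adjusted p of 0.166 by edgeR. None of 29 assembly and rRNA modification genes passed, Mettl17 (0.18) and Eral1 (0.15) having the smallest p, and neither did any of the 5 subunits with other symbols (Dap3, Ptcd3, Chchd1, Aurkaip1 and Gadd45gip1) or of the 82 cytosolic ribosomal protein genes, whose median was -0.06. The RNAs that the ribosome holds or reads lay elsewhere. Both ribosomal RNAs were higher in sgElovl1 cells (mt-Rnr1 by 0.32 ± 0.08 and mt-Rnr2 by 0.36 ± 0.09, edgeR adjusted p = 0.0115 and 0.00703), as were 11 of 13 mitochondrial mRNAs, with a median of 0.49. For mt-Rnr1 the difference was 0.03 in experiment 1 and 0.61 in experiment 2, and neither ribosomal RNA passed in DESeq2's Wald test (adjusted p = 0.897 and 0.691). The mitochondrial mRNAs were called in the main edgeR fit and were not looked up in the other fits. The libraries were made from polyadenylated RNA, so that ribosomal RNA was measured only in part.

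**Figure D2:**
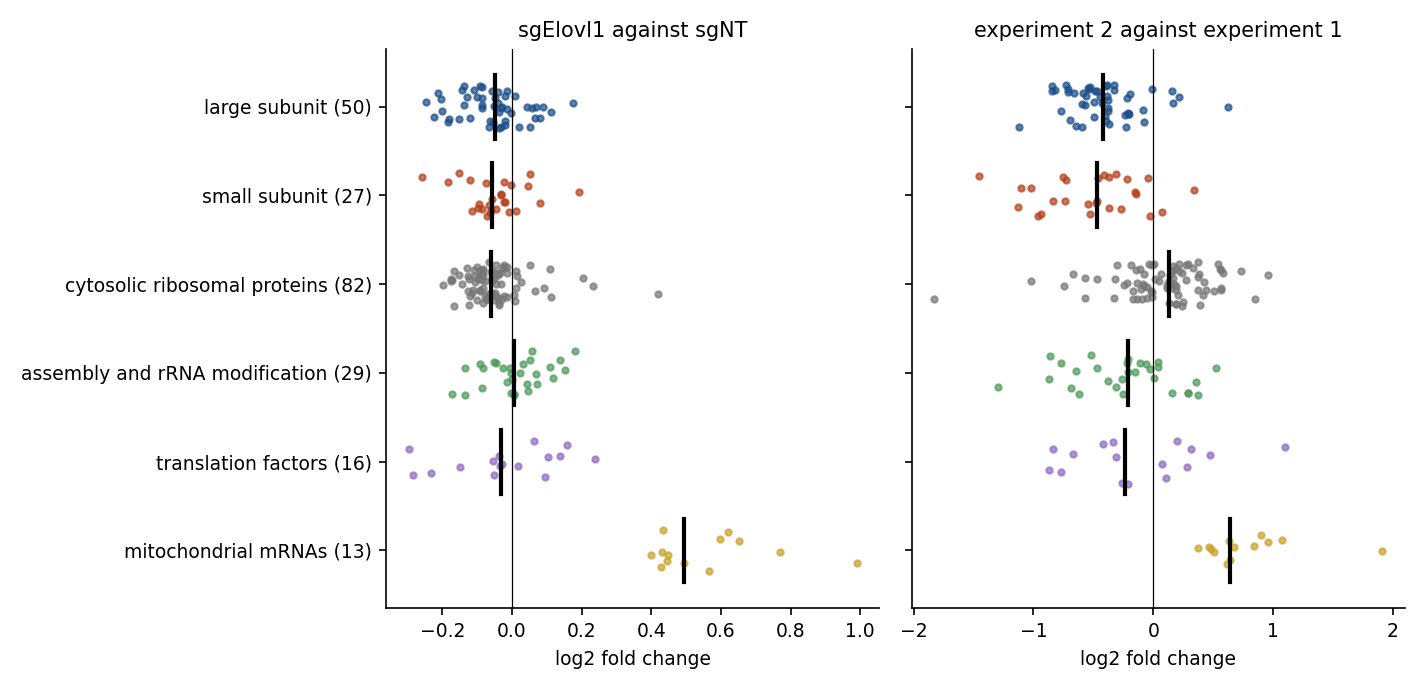
Log2 fold changes of 6 gene groups for sgElovl1 against sgNT (left) and experiment 2 against experiment 1 (right), each point a gene and each bar the median, with the number of genes in brackets. Both subunits sit near 0 on the left and mostly below 0 on the right, where the medians were -0.42 and -0.47, whereas mitochondrial mRNAs lie above 0 in both.

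The 2 experiments, repeats of the same design, differed far more in these genes than the guides did. In experiment 2, 65 of the 77 genes (84.4%) were lower than in experiment 1 at an edgeR adjusted p below 0.05, against 29.2% of all genes, and 4 (5.19%) were higher, against 26.4%. The median log2 fold change was -0.44, a ratio of 0.735, where the median of all genes was 0.00, and the interquartile range ran from -0.66 to -0.23. Both columns of experiment 2 were below both columns of experiment 1 in 67 genes (87.0%), against 38.4% of all genes, and above them in 3, against 37.4%. For 59 of the 77 genes, the smaller of the 2 differences between experiments, one for each guide, exceeded the larger of the 2 differences between guides. The same count was not made over all genes. Of all 16006 genes, edgeR called 8896 between the experiments and 192 between the guides, so the count is not read as particular to these genes. The labels name the experiments but not what set them apart, so that date, mice, culture and sequencing cannot be told apart.

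**Figure D3:**
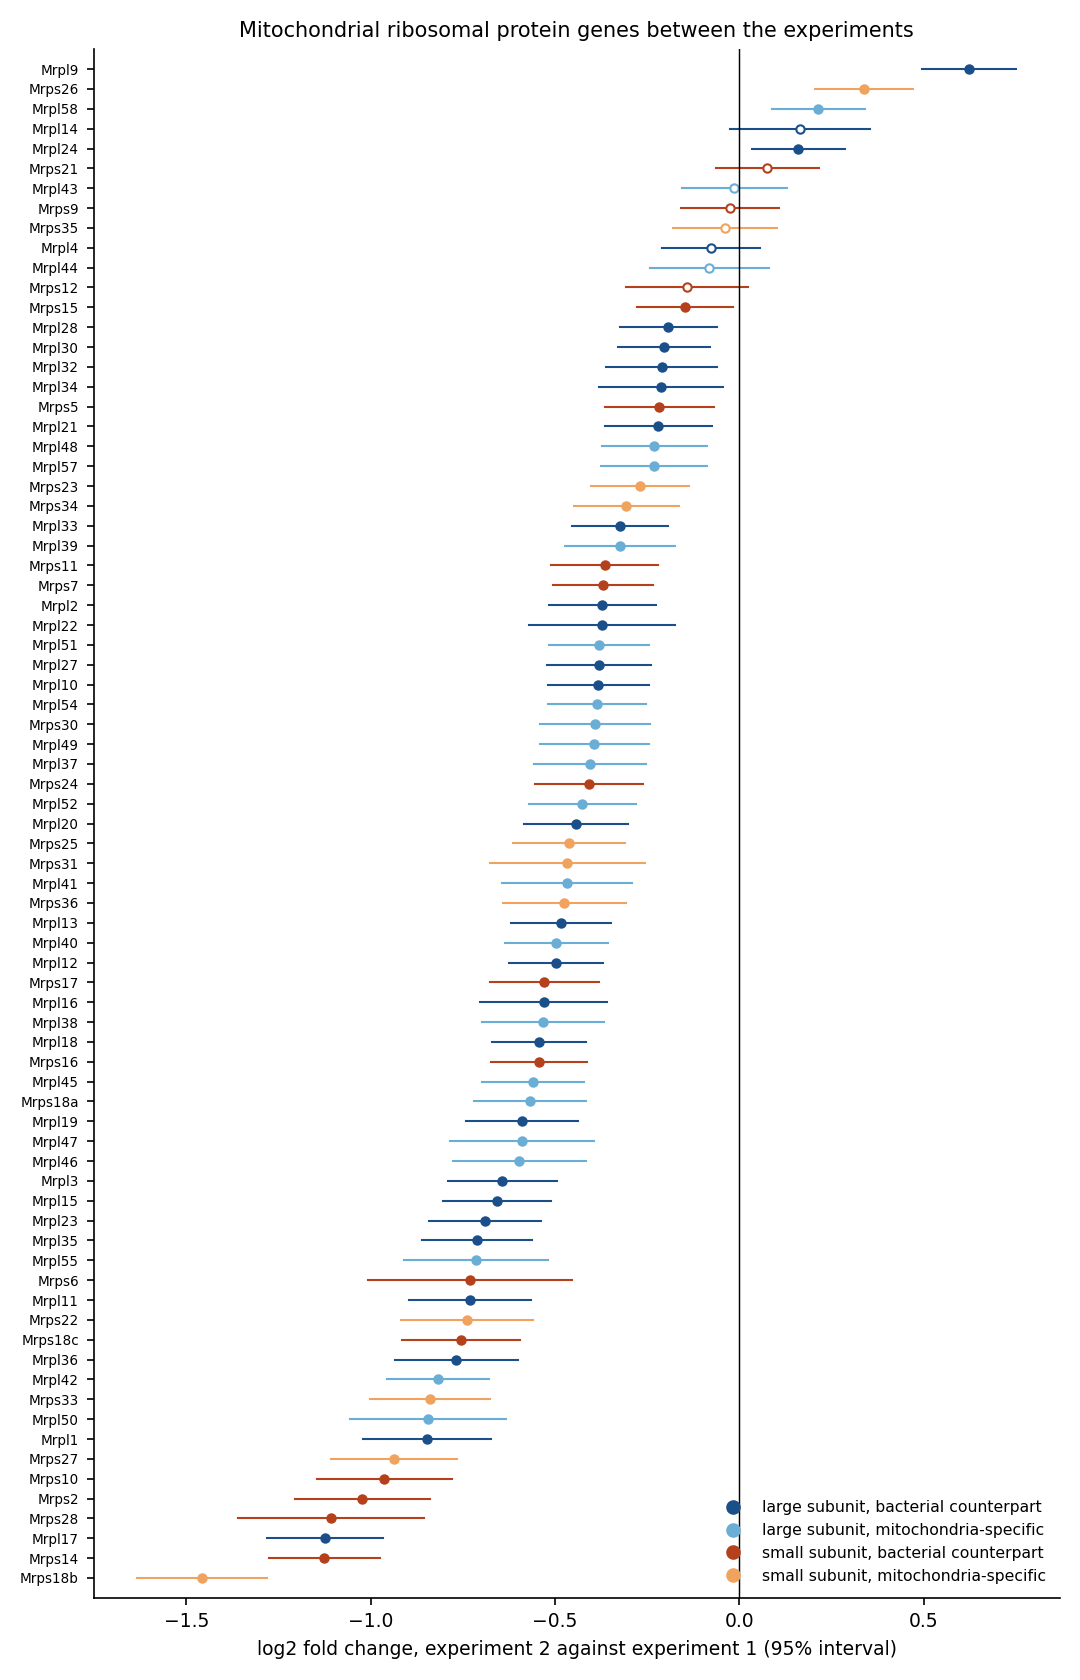
Log2 fold change of experiment 2 against experiment 1 for each of the 77 genes with its 95% interval, filled where the edgeR adjusted p was below 0.05 and open where it was not. Values run from 0.62 for Mrpl9 at the top to -1.46 for Mrps18b at the bottom, and genes of both subunits lie along most of the range.

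The lower values were seen with both guides and in both subunits. Within sgElovl1 cells the median was -0.36 and within sgNT cells -0.54, and the order of the genes was much the same (Spearman's rho of 0.90 between the differences in the 2 guides over 77 genes, and 0.75 over 15039 genes). In the large subunit 43 of 50 genes (86.0%) were lower and in the small subunit 22 of 27 (81.5%). Genes with bacterial counterparts had medians of -0.41 in the large and -0.47 in the small subunit, and genes specific to mitochondria -0.42 and -0.47. Genes with a higher mean CPM had less negative differences, with a Spearman's rho of 0.54 over the 77 genes and of -0.12 over all genes, although both measures come from the same columns. Transcript length had a rho of -0.05 and GC content of 0.26.

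Mrps18b had the largest difference, with 12.4 CPM in sgElovl1 and 13.3 CPM in sgNT cells of experiment 2, against 37.5 and 33.3 CPM in experiment 1. Both columns of experiment 2 were thus far below both of experiment 1, with a log2 fold change of -1.46 ± 0.09 and an edgeR adjusted p of 2.3e-57. Mrps14, of the bacterial S14 family, had 23.3 and 24.7 CPM in experiment 2, against 50.3 and 54.4 CPM in experiment 1 (sgElovl1 and sgNT each time), and a log2 fold change of -1.13 ± 0.08. Mrpl17 (-1.12 ± 0.08), Mrps28 (-1.11 ± 0.13) and Mrps2 (-1.02 ± 0.09) were the other genes that were more than 2-fold lower. Such genes were 5 of the 77 (6.49%), against 7.89% of all genes, a share near the background. Mrps2, of the bacterial S2 family, had 13.6 and 13.4 CPM in experiment 2, against 26.8 and 28.1 CPM in experiment 1.

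The genes that went the other way were few. Mrpl9, of the bacterial L9 family, had 136 CPM with either guide in experiment 2, against 87.0 CPM in sgElovl1 and 89.4 CPM in sgNT cells of experiment 1, a log2 fold change of 0.62 ± 0.07 with an edgeR adjusted p of 1.5e-20. Mrps26 had 79.3 and 84.3 CPM in experiment 2, against 58.6 and 71.3 CPM in experiment 1 (0.34 ± 0.07). Mrpl58 had 125 and 117 CPM in experiment 2, against 99.1 and 110 CPM in experiment 1 (0.21 ± 0.06). In these 3 genes both columns of experiment 2 were the higher ones. Mrpl24, the last of the 4, rose by 0.16 ± 0.06 with overlapping columns (124 and 110 CPM, against 111 and 98.3 CPM). The 8 genes that did not pass were Mrpl4, Mrpl14, Mrpl43, Mrpl44, Mrps9, Mrps12, Mrps21 and Mrps35, with log2 fold changes from -0.14 for Mrps12 to 0.16 for Mrpl14.

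**Figure D4:**
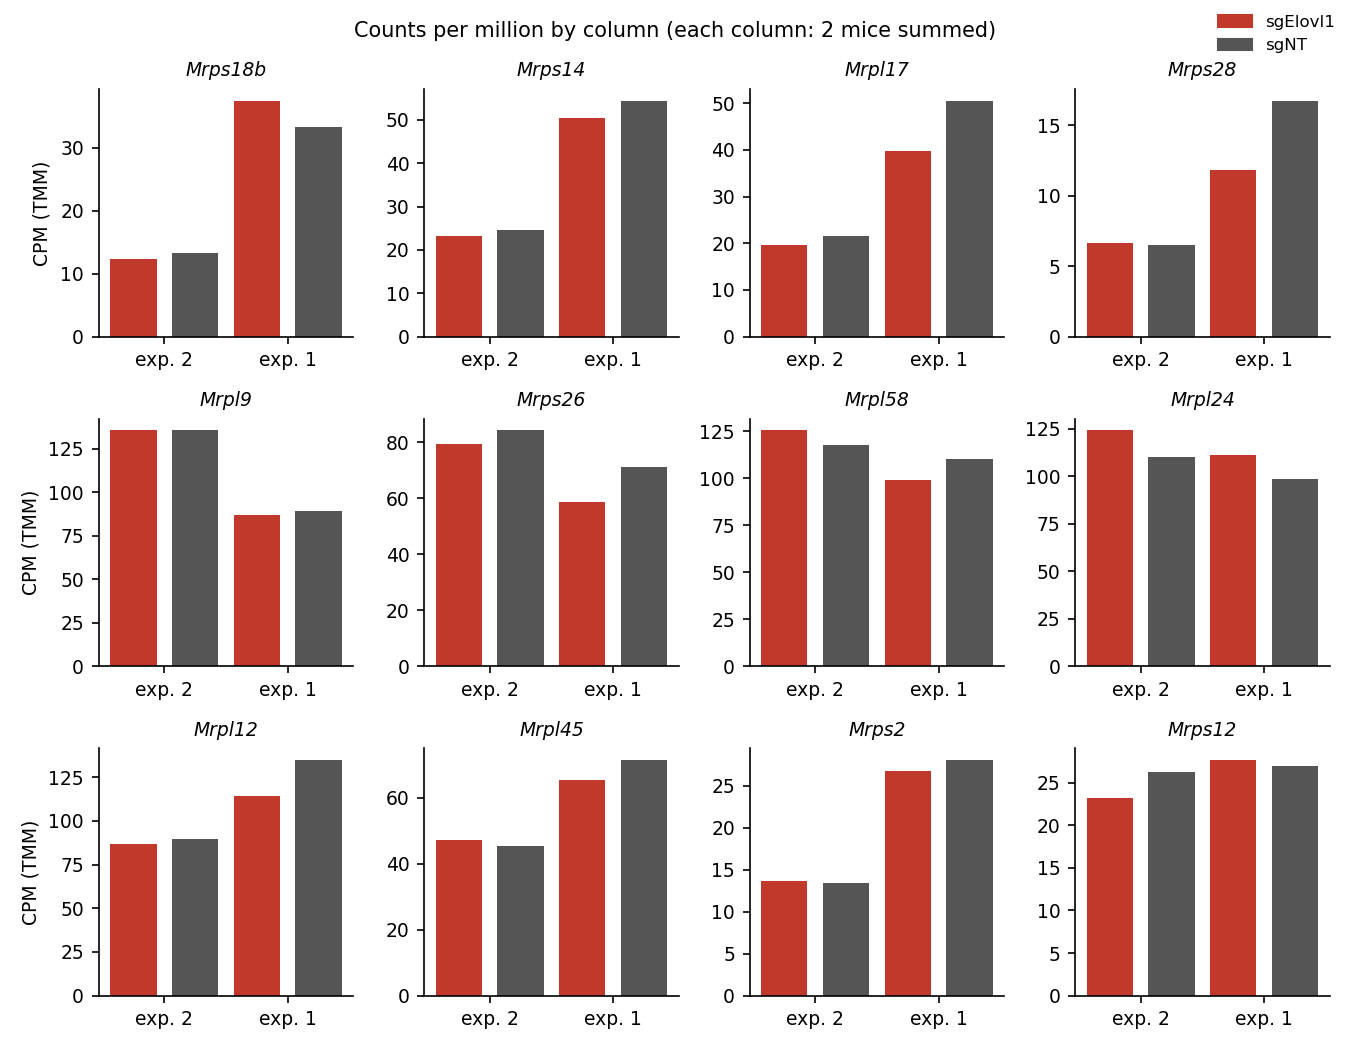
CPM in each of the 4 columns for 12 genes, sgElovl1 in red and sgNT in grey, experiment 2 left and experiment 1 right, each bar 1 column and therefore without an error bar. The top row holds the 4 genes lowest in experiment 2, such as Mrps18b with 12.4 and 13.3 CPM, the middle row the 4 that rose, and the bottom row genes named for their roles.

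The genes named for their roles covered a wide range of differences between the experiments. In the stalk, Mrpl11 fell by 0.73 on the log2 scale, Mrpl12 fell by 0.50 and Mrpl10 fell by 0.38. Mrpl45 fell by 0.56 and Mrpl3 fell by 0.64, while Mrpl44 had -0.08 ± 0.08. Of the disease genes of the small subunit, Mrps22 fell by 0.74, Mrps16 fell by 0.54 and Mrps34 fell by 0.31. The relatives of S18 fell by 1.46 (Mrps18b), 0.76 (Mrps18c) and 0.57 (Mrps18a). Mrps34 overlaps Nme3 and Mrps18c overlaps Gm43511 on the same strand in GENCODE M21, and counts in shared stretches may have been lost or split.

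Related genes moved in part with them. Of the 5 subunits with other symbols, Chchd1 (-1.39 ± 0.08) and Ptcd3 (-0.55 ± 0.08) were lower in experiment 2, Dap3, the GTP-binding protein of the small subunit, was higher (0.30 ± 0.07), and Aurkaip1 and Gadd45gip1 had -0.02 and -0.01. Of 29 assembly and modification genes 16 were lower and 5 higher, with a median of -0.21. C1qbp, a matrix protein tied to mitochondrial translation, had 60.9 and 60.6 CPM in experiment 2, against 144 and 154 CPM in experiment 1, which was the lowest log2 fold change of that list (-1.29 ± 0.07). Of the 16 translation factors and mRNA-handling genes 7 were lower and 3 higher, among them Lrpprc and Slirp, partners that stabilise mitochondrial mRNAs, at -0.87 and -0.77. The cytosolic ribosomal protein genes did not share the pattern, with 14 of 82 lower, 34 higher and a median of 0.14. Nor did the mitochondrial mRNAs, of which 13 of 13 were higher, with a median of 0.64, while mt-Rnr1 and mt-Rnr2 were lower (-0.65 and -0.30). Because the columns are bulk samples, fewer cells of a kind and less RNA per cell cannot be told apart.

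Other quantities differed between the experiments too. CD8 T cell markers had a median of 0.32 in experiment 2 against experiment 1, with 5 of 7 higher and Trac lower. Of 17 markers of other cells 10 were tested, of which 3 were higher (Itgax, Foxp3 and Pecam1) and 1 lower (Epcam), and those 10 together held 0.00762% and 0.00802% of counts in experiment 2, against 0.00432% and 0.00360% in experiment 1. Of 3 nuclear-retained RNAs, Neat1 was higher by 1.13, while Malat1 and Kcnq1ot1 did not pass and had -0.03 and -0.14. The part of these differences in the values of the ribosomal genes was not tested.

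The share of all counts held by the 77 genes put both comparisons on one scale. It was 0.315% in sgElovl1 cells and 0.324% in sgNT cells of experiment 2, against 0.396% and 0.422% in experiment 1. The exact binomial 95% interval of the value for sgElovl1 cells of experiment 1 was 0.395% to 0.398% and covers counting error only. Mitochondrially encoded genes held 9.72% and 14.3% of counts in sgElovl1 cells, against 7.72% and 10.2% in sgNT cells. With those genes and the 20 genes of most counts left out of the total, the share was 0.472% and 0.395% in sgElovl1 cells, against 0.494% and 0.388% in sgNT cells. The order of the guides was then opposite in the 2 experiments, and the experiments stayed apart.

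**Figure D5:**
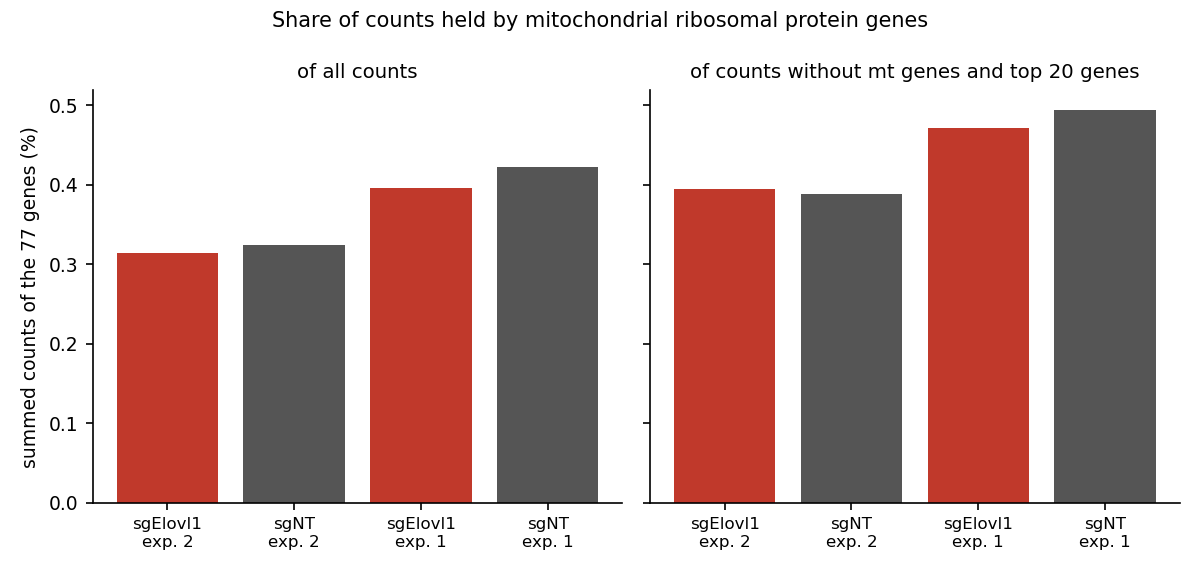
Summed counts of the 77 genes in percent, of all counts (left) and of counts without mitochondrially encoded genes and the 20 genes of most counts (right), 1 bar for each column with sgElovl1 in red and sgNT in grey. The experiment 2 bars (0.315% and 0.324% in the left panel) are below the experiment 1 bars (0.396% and 0.422%) in both panels.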

How the data were processed

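Bulk RNA-seq libraries were strand-specific, made from polyadenylated RNA and sequenced paired-end. According to its methods and processing notes, the authors of the study aligned reads with STAR 2.7.10b to GRCm39, counted them over whole genes, introns included, on the reverse strand with featureCounts 2.0.1 in R 4.3.3, and summed replicate mice within an experiment. The deposited values are these raw counts, with no normalization. For the annotation release and for reads with several alignments, the settings are not given in the sources used here. Genes were tested by the authors with DESeq2 1.42.0.

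Columns were assigned to groups by the labels alone. Counts were scaled by TMM, filtered with filterByExpr and fitted in edgeR 4.0.16 (quasi-likelihood) with terms for condition and experiment over 16006 genes, p-values being adjusted by Benjamini-Hochberg with a threshold of 0.05. CPM values are TMM-scaled, and log2 CPM carry a prior count of 2. A count of 0 allows up to 3 counts, that is 0.0472 to 0.0611 CPM. Within-experiment differences compare 1 column with 1 column and have no test. Nothing in the table says that the columns are separate cultures, so p-values measure only the spread between columns, which may be technical. Alternatives used DESeq2 1.42.0, limma 3.58.1 (voom), other scalings and filters, and each column left out. Scripts were tested on simulated data.

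The named genes were the 6 highest and 6 lowest for the guide, the 4 highest and 4 lowest for the experiment, and a list by role. In the pathway lists, they were the genes past the threshold, or else those with the smallest p. Others were named for an overlap or to account for a small count, after their values were seen. The 82 cytosolic ribosomal protein genes were taken by symbol, with at least 10 counts in each column. They include symbols ending in l or l1, which may not be standard subunits. Among these, Rpl32l had the highest guide value of the set (0.42), and Rps27l and Rpl7l1 the lowest between the experiments (-1.83 and -1.02). The members and lists were chosen with earlier results of these data known. Overlaps, transcript lengths and GC content come from GENCODE M21, and promoters from RefSeq on GRCm38.p6, neither of which is the authors' build.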

Additional observations from a re-analysis of the deposited data

Results flagged for a closer look

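The median difference of the 77 genes between sgElovl1 and sgNT cells was -0.10 on the log2 scale in experiment 1 and 0.0362 in experiment 2, opposite in sign. The difference between the experiments was not tested, since each holds 1 column of each guide. The 6 pseudogene entries, which the comparisons left out, held 129 counts summed over the columns, above the limit of 3 that a count of 0 allows.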

How the results depend on the processing

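No paired analysis was possible because each column sums the 2 mice, as far as the replicate numbers of the labels go, whereas the experiment term already paired the guides within each experiment. For sgElovl1 against sgNT, 0 of 77 genes passed under all 14 alternatives run, and the median stayed between -0.06 and -0.02 in those that kept all columns. With each column left out in turn and no term for the experiment, it ran from -0.27 (without sgElovl1 of experiment 1) to 0.21 (without sgNT of experiment 1), since the guides then differ in their experiments. Elovl1 did not pass without the experiment term (-0.80) or with a column left out (-0.89 to -0.68). Tufm passed in 2 of 14 alternatives, and mt-Rnr1 ran from -0.12 (without sgNT of experiment 2) to 0.80 (without sgNT of experiment 1) with a column left out. For experiment 2 against experiment 1, the alternatives gave 56 to 65 lower genes and 3 to 6 higher ones. Upper-quartile scaling, which gave the 56, moved the median of all genes to 0.08. Over all genes, the guide comparison called 192 with edgeR, 26 with DESeq2, 94 with no filter, 59 at a mean of at least 5 CPM, 72 with the shift between the experiments removed, 0 without the experiment term and 0 to 6 with a column left out. The shares without the mitochondrial and most abundant genes, 0.472% and 0.395% in sgElovl1 cells against 0.494% and 0.388% in sgNT cells, moved by their change of denominator. Only 4 columns, each of 2 mice, limit every statement. A minimum of 100 counts gave the same 77 genes.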
